A study of Drosophila melanogaster with 2 samples.

Results

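Peaks at transfer RNA (tRNA) genes are the peaks of the pooled list whose summit, the base of highest signal, lay within 100 bp of a gene annotated as tRNA. Of the 5823 pooled peaks on the main chromosome arms (2L, 2R, 3L, 3R, 4 and X), 208 met this rule, a share of 3.57% (Wilson 95% interval 3.13 to 4.08). They covered 211 of the 290 tRNA genes on these arms, since 3 of the peaks had 2 tRNA genes within 100 bp. The peaks come from chromatin immunoprecipitation sequencing of whole Drosophila melanogaster embryos aged 0 to 18 hours that carried an amos-eGFP transgene. Amos, a proneural transcription factor of the basic helix-loop-helix (bHLH) class, binds E-boxes. Chromatin bound by the fusion was collected with an antibody against GFP, although the antibody label reads amos, after it had been sonicated to 200 to 800 bp. The only group held 2 samples labelled as biological replicates, and no control library was analysed here, so signal at tRNA genes above an input was not tested. In whole embryos, binding in more cells and stronger binding per cell cannot be told apart.

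tRNA genes are short genes read by RNA polymerase III. Their promoter lies inside the gene: the A box and the B box are bound by TFIIIC, which brings TFIIIB to the DNA just upstream, and TFIIIB recruits the polymerase, which stops at a run of T after the gene. Many tRNA genes of the fly are identical copies that stand in clusters, so a peak at a gene has its own position only as far as reads reach unique flanking sequence.

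The first set of sequences shows genes under the strongest of these peaks, with the promoter elements that lie inside them. Each is printed on the strand of the gene, 5′ to 3′, from 30 bases before the gene to 20 after it, from the RefSeq Release 6 genome (dm6). Capitals mark the A box, where its consensus matched, and the B box core GTTCNA.
tRNA:Gly-TCC-1-2 (chr3R:7130927-7131048, minus strand): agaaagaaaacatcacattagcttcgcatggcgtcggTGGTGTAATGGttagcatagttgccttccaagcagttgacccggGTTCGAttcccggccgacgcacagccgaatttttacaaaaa
tRNA:Pro-CGG-2-3 (chr3L:18618360-18618481, plus strand): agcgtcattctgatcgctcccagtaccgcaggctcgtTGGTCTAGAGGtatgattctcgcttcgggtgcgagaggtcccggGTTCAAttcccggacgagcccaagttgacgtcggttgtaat
tRNA:Glu-CTC-2-3 (chr3L:22847705-22847826, minus strand): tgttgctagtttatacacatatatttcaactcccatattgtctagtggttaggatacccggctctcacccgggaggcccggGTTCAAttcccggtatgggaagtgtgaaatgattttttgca
tRNA:Leu-CAG-1-6 (chr3L:8065974-8066106, minus strand): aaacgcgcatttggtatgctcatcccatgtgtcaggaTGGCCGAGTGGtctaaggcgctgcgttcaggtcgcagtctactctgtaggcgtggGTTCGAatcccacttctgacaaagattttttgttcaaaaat
The Leu-CAG gene is longer because of its variable arm, which moves the B box core further from the start of the gene. At the Glu-CTC gene the A box consensus had no match, so only the B box core is in capitals.

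The next set shows identical copies of a gene for aspartate tRNA, a family of 12, with the strongest peak, the weakest peak and no peak in the pooled list. These copies were chosen after their values were seen. Capitals mark the A box and the B box core as before, and the genes differ only in the bases around them.
tRNA:Asp-GTC-1-4 (chr2L:8541532-8541653, minus strand): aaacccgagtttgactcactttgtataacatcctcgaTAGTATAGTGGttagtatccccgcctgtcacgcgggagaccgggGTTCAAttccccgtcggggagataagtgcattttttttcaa
tRNA:Asp-GTC-1-6 (chr2L:8619998-8620119, plus strand): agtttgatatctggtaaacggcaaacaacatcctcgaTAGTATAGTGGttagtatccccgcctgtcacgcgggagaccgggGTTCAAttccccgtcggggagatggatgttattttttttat
tRNA:Asp-GTC-1-1 (chr2L:5241086-5241207, minus strand): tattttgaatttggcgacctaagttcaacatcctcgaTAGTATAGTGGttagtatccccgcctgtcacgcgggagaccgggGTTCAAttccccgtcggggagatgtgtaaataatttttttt
The pooled signal was 417.0 at tRNA:Asp-GTC-1-4 and 104.2 at tRNA:Asp-GTC-1-6. No pooled summit lay within 100 bp of tRNA:Asp-GTC-1-1. In the replicate lists, tRNA:Asp-GTC-1-4 had a signal of 124.0 in replicate 1 and no matching peak in replicate 2, while tRNA:Asp-GTC-1-6 had 67.9 in replicate 2 and 49.4 in replicate 1, there with its summit 83 bp upstream of the gene. Copies with the same internal promoter thus had a strong, a weak and no pooled peak. Their neighbours differed: tRNA:Asp-GTC-1-1 lay 268 bp from tRNA:Asp-GTC-2-1, which had a pooled peak of 411.7. At 137 bp from tRNA:Asp-GTC-1-4 lay another copy, tRNA:Asp-GTC-1-5, with no pooled peak.

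The strongest tRNA peaks were listed in both replicates, and stood higher in the replicate 2 list than in the replicate 1 list. The signal is the value of the authors' peak caller, with a scale of its own in each list, so it is used to order peaks within a list. A replicate's value is that of its list's peak with a summit within 100 bp of the pooled summit. The strongest, at tRNA:Leu-AAG-1-3 (FBgn0050235, chr2R:17145300-17145381), had a pooled signal of 772.9, with 150.7 in replicate 1 and 652.2 in replicate 2. It ranked 396 of the pooled peaks, 1710 in the replicate 1 list and 34 in the replicate 2 list. At tRNA:Gly-TCC-1-2 (FBgn0051491, chr3R:7130947-7131018) the pooled signal was 710.3, with 287.0 in replicate 1 and 502.7 in replicate 2. At tRNA:Pro-CGG-2-3 (FBgn0052200) these values were 622.7, 131.3 and 505.5. All 3 genes thus had peaks in every list, with a better rank in replicate 2.

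Glutamate, leucine, asparagine and serine tRNA genes followed. tRNA:Glu-CTC-2-3 had a pooled signal of 583.2, with 127.5 in replicate 1 and 475.9 in replicate 2. tRNA:Leu-CAG-1-6, in the gene Sarm, had 571.2, 119.4 and 470.2. tRNA:Asn-GTT-1-1, in the ecdysone receptor gene EcR, had 564.7, 143.0 and 417.5. The next were tRNA:Ser-AGA-2-4, tRNA:His-GTG-1-4, tRNA:Ser-CGA-1-4, tRNA:Arg-TCG-2-4, tRNA:Lys-CTT-1-1, tRNA:Thr-AGT-1-7, tRNA:Lys-CTT-1-5, tRNA:Ser-AGA-2-3 and tRNA:Ser-TGA-1-1, with pooled signals from 562.6 down to 522.9. All 15 of these peaks had a counterpart in both replicate lists, with ranks of 963 to 3812 of 6213 in replicate 1 and 34 to 199 of 2880 in replicate 2. In replicate 1, tRNA:Ser-TGA-1-1, tRNA:Ser-AGA-2-4 and tRNA:Lys-CTT-1-1 stood below the median signal of the list.

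Over all 208, pooled signal ran from 8.14 to 772.9 with a median of 250.3, beside a median of 120.1 for all pooled peaks. The median percentile within the list was 70.9, and 170 of the tRNA peaks stood above the list's median signal. They were few at the top: with the list cut into deciles by signal, 3 lay in decile 1, the strongest, where signals reach 4454.5. The following deciles held 48, 55, 39, 25, 15, 9, 8, 3 and 3. Peaks at tRNA genes therefore gathered in deciles 2 to 4 of the pooled list.

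**Figure D1:**
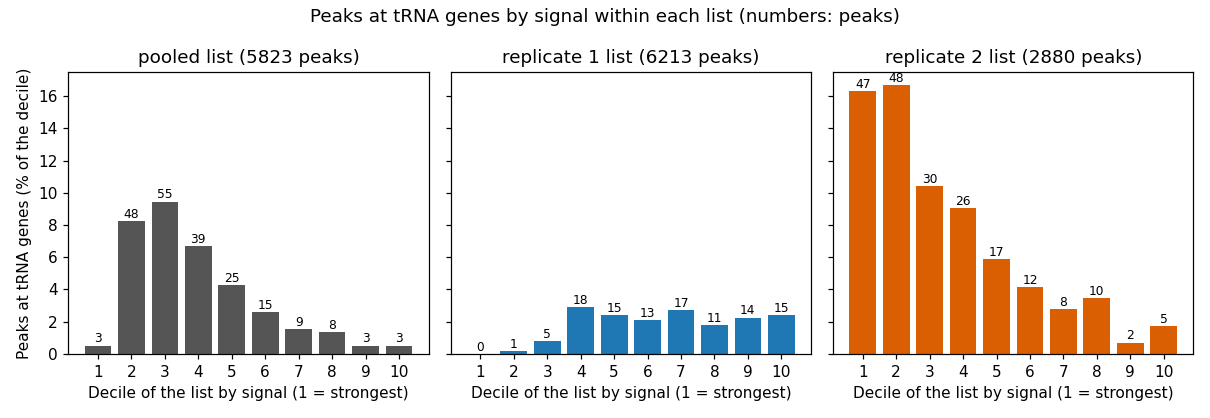
Share of peaks at tRNA genes (vertical axis, % of the decile) in each decile of a list by signal (horizontal axis, 1 is the strongest), for the pooled, replicate 1 and replicate 2 lists, with the number of tRNA peaks above each bar. The pooled list has 3 in decile 1 and 55 in decile 3, the replicate 1 list has 0 in decile 1, and the replicate 2 list has 47.

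The replicates gave tRNA genes a different place. Of the 6213 peaks of replicate 1 on these arms, 109 (1.75%, 1.46 to 2.11) were at tRNA genes. Of the 2880 of replicate 2, these were 205 (7.12%, 6.24 to 8.12). The mean was 4.44% ± 3.79 (SD, n = 2), and the share of tRNA genes with a peak was 38.3% in replicate 1 and 72.4% in replicate 2 (55.3% ± 24.1, SD, n = 2). The shorter list held more of these peaks, in number and in share.

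The order within the lists differed as well. In replicate 1 the median signal of tRNA peaks was 62.3 beside 76.7 for all peaks, a median percentile of 39.4, and 0 of them lay in decile 1. In replicate 2 it was 219.1 beside 103.0, a median percentile of 78.2, and 47 lay in decile 1. By gene, 97 tRNA genes had a peak in both replicate lists, 14 in replicate 1 alone, 113 in replicate 2 alone and 66 in neither. Most genes with a peak in replicate 1 thus had one in replicate 2, and not the other way round.

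The same held for the pooled peaks themselves, counted as shared where intervals overlapped by 1 bp or more. A replicate 1 peak overlapped 110 of the 208 tRNA peaks (52.9%), beside 82.0% of all pooled peaks. A replicate 2 peak overlapped 193 (92.8%), beside 46.8% of all. Both replicates had 99 of the tRNA peaks (47.6%, beside 39.7% of all), replicate 2 alone 94 (45.2%, beside 7.20%), replicate 1 alone 11 (5.29%, beside 42.3%) and neither 4. The conservative list, the other thresholded list from pooled reads, overlapped 130 (62.5%, beside 52.1% of all). Overlap with replicate 1 was thus less frequent among tRNA peaks than among all pooled peaks, and overlap with replicate 2 more frequent.

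List length and thresholds differ between the replicates, so the order was also taken over 1 set of peaks. Of the pooled peaks, 3764 had a region in both replicates' ranked lists, which go below the threshold, and 150 of these were at tRNA genes. Within this set the tRNA peaks had a median percentile of 19.9 in replicate 1 (interquartile range 6.43 to 41.0) and 87.5 in replicate 2 (77.5 to 93.1). The percentile was higher in replicate 2 for 147 of the 150 (98.0%, 94.3 to 99.3), and for 1632 of the 3764 peaks of the set (43.4%). Of the 2876 peaks within 500 bp of a protein-coding transcription start site (TSS), 33.3% were higher in replicate 2, and of the 738 peaks at neither kind of gene, 71.4%. Over the tRNA peaks, Spearman's rank correlation of signal between replicates was 0.59, given as a description over 150 peaks that share 2 libraries. The tRNA peaks thus moved as a body between the replicates while keeping part of their own order. Their higher place in the pooled list went with replicate 2, and what differed between the samples was not tested.

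**Figure D2:**
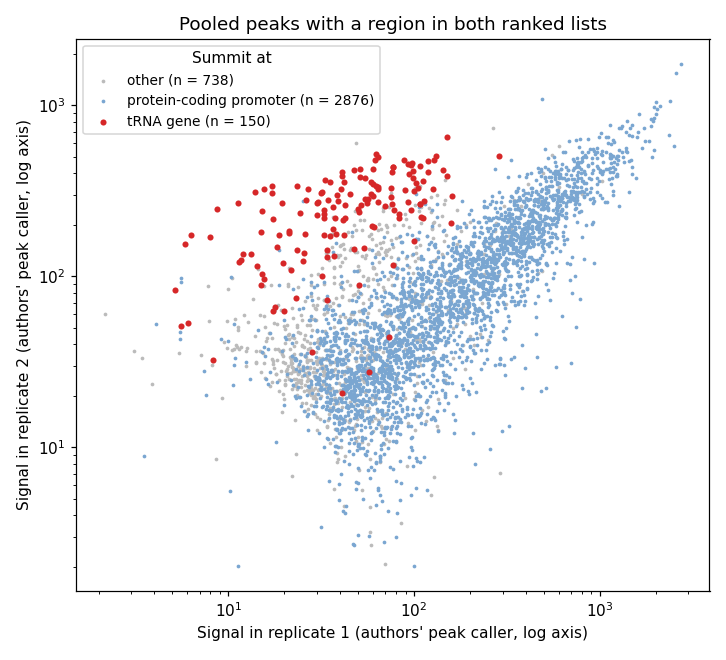
Signal in replicate 1 (horizontal, log axis) and in replicate 2 (vertical, log axis) of the 3764 pooled peaks with a region in both ranked lists, each point a peak at a tRNA gene (150, red), a protein-coding promoter (2876, blue) or elsewhere (738, grey). The tRNA peaks lie to the upper left of most other peaks, with medians of 42.2 in replicate 1 and 262.8 in replicate 2, against 100.5 and 65.3 over the whole set.

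Nearly all tRNA peaks had a low deposited q value, with the limit of 0.05 set here and not by the authors, who cut the lists by IDR. A q value of 0.05 or less was deposited for 201 of the 208 (96.6%, 93.2 to 98.4), beside 76.4% of all pooled peaks. The weakest peak was at tRNA:Trp-CCA-1-2 with a signal of 8.14, and the next, with 17.8, was at tRNA:Lys-CTT-1-2, whose interval also held the summit at tRNA:Asn-GTT-1-6 with 185.9. Peak width went with signal: 51 tRNA peaks (24.5%) had the commonest width of the list, 360 bp, beside 61.9% of all pooled peaks. These 51 had a median signal of 107.3, and 10 of them were in replicate 1 and 42 in replicate 2. The 157 of other widths had a median of 302.7, with 100 in replicate 1 and 151 in replicate 2.

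The pooled summits mostly lay inside the genes, a little past the midpoint. Of the 208 summits, 186 (89.4%) were between the first and the last base of the gene, 8 were upstream and 14 downstream. Counted along the strand of the gene from its first base, the median position was 45.5 bp (interquartile range 36 to 59.25, range −66 to 121). It was 44 bp for genes on the plus strand (n = 111) and 47 bp for genes on the minus strand (n = 97), so the position followed the direction of the gene. The rule admits summits up to 100 bp away, and only 1 member was more than 50 bp from its gene, tRNA:Ile-AAT-1-7 at 66 bp.

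Longer genes had summits further in. For genes of 71 to 74 bp the median position was 43 bp (n = 165), for genes of 80 to 87 bp, which include leucine and serine tRNA genes with a long variable arm, 50.5 bp (n = 32), and for genes of 93 to 127 bp 61 bp (n = 11). The last class held tyrosine, Leu-CAA and Ile-TAT tRNA genes, which carry introns. The B box core, found in 196 of the genes, had its centre at a median of 54.5 bp, and the A box, found in 194, at 12 bp. The summit was a median of 14.5 bp from the B box core and 35.75 bp from the A box. From the gene's midpoint it was a median of 13.5 bp, with a signed median of 8 bp. Of the 182 peaks at genes with both, 139 were nearer to the B box core and 43 to the A box. In genes of 71 to 74 bp the midpoint is itself nearer to the B box core, so this count does not place the summits there. The strongest printed sequence differed: the summit of tRNA:Gly-TCC-1-2 was 13 bp from the first base, at the A box, and that of tRNA:Pro-CGG-2-3 was at 36 bp, between the boxes.

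The summit position also differed between replicates. In the replicate 1 list the median was 23 bp (interquartile range −8 to 43), with 67 of 109 summits (61.5%) inside the gene and 32 upstream of it. In the replicate 2 list it was 48 bp (39 to 60), with 181 of 205 (88.3%) inside and 6 upstream. At the 97 genes with a peak in both lists the median was 25 bp in replicate 1 and 48 bp in replicate 2, and the replicate 2 summit was further along the gene at 75 of them, further back at 19 and at the same base at 3. The pooled position thus went with that of replicate 2. A spread of this size is within the fragment length of the chromatin, and its cause was not tested.

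**Figure D3:**
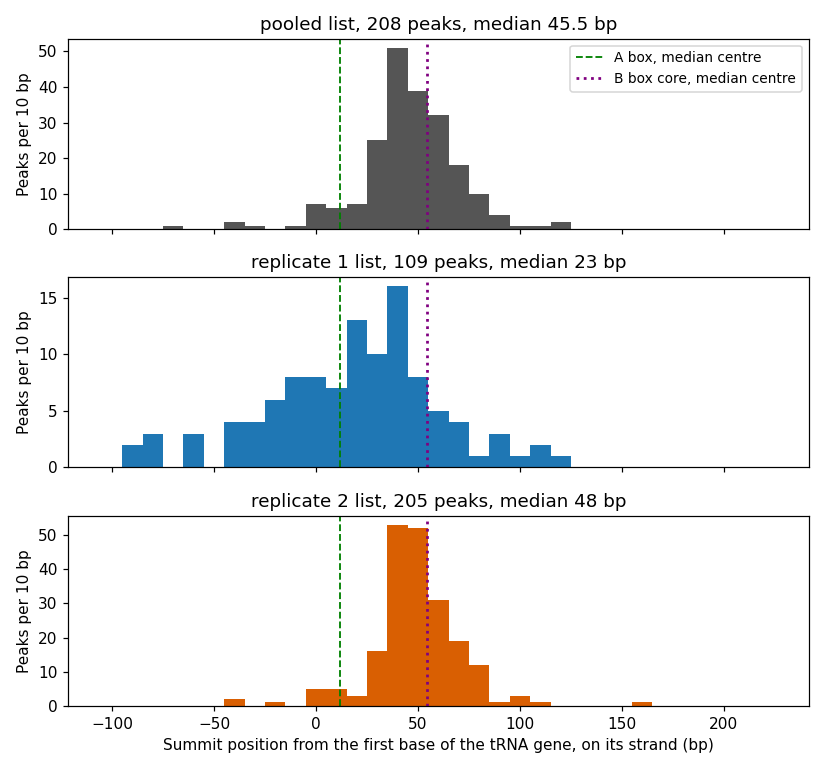
Number of tRNA peaks per 10 bp (vertical axis) by summit position from the first base of the tRNA gene on its own strand (horizontal axis, bp), for the pooled, replicate 1 and replicate 2 lists, with the median centres of the A box (dashed, 12 bp) and B box core (dotted, 54.5 bp). The pooled and replicate 2 summits gather at medians of 45.5 and 48 bp, and the replicate 1 summits spread wider around 23 bp.

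At the edge of the rule, the summits furthest from their gene were those at tRNA:Ile-AAT-1-7 (66 bp, signal 190.2), tRNA:Glu-CTC-3-3 (50 bp, 107.3), tRNA:Trp-CCA-2-6 (45 bp, 347.0) and tRNA:Lys-CTT-1-4 (44 bp, 251.9). Just outside it lay peaks 114 bp from tRNA:Phe-GAA-1-2 (signal 139.7), 140 bp from tRNA:Gly-TCC-1-3 (54.1) and 246 bp from tRNA:Trp-CCA-2-2 (774.5). The first of these was 119 bp from the TSS of the ribosomal protein gene RpL17, and the last 41 bp from that of CG30122. No other pooled summit lay between the 100 bp limit and 250 bp, so few peaks were decided by the limit.

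Few tRNA peaks lay at promoters of protein-coding genes. A protein-coding TSS was within 500 bp of the summit in 20 of the 208 (9.62%, 6.31 to 14.4), beside 74.7% of all pooled peaks. None of the 20 was nearer than 253 bp, the distance from the summit at tRNA:Thr-AGT-1-4 to the TSS of CG31279. The median distance was 2325.5 bp, beside 63 bp for all, and 153 tRNA peaks were more than 1000 bp away. By gene, 22 of the 33 tRNA genes within 500 bp of a TSS had a peak (66.7%, 49.6 to 80.2) and 189 of the 257 further away (73.5%, 67.8 to 78.6), with overlapping intervals. Of the 134 tRNA genes inside a protein-coding gene 95 had a peak (70.9%), and of the 156 outside 116 (74.4%), with intervals that overlap.

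The motifs at the summits were those of the tRNA gene. With windows of 50 bp on each side of the summit, read on both strands, GTTCNA was in 183 of the 208 (88.0%, 82.9 to 91.7), beside 19.1% of all pooled peaks, which follows from the rule since the B box is part of the gene. CGATAG, bound by the insulator factor BEAF-32, matched in 11 (5.29%, 2.98 to 9.22), beside 25.7% of all and 9.04% of the 1283 peaks at neither a tRNA gene nor a promoter. TATCGATA, bound by DREF, was in 0 (0 to 1.81), beside 13.7% of all. GGTCACACT, bound by M1BP at core promoters, was also in 0, beside 3.59%. Promoter peaks away from tRNA genes made up 1367 of the 1494 pooled peaks with CGATAG. They were also 739 of the 797 with TATCGATA and 202 of the 209 with GGTCACACT. Few tRNA peaks lay at promoters, so these contrasts with all peaks are not particular to tRNA genes. For CGATAG, the interval of the tRNA share holds the 9.04% of peaks at neither a tRNA gene nor a promoter. GAGAGAG, the site of GAGA factor, was in 1 (0.481%), beside 1.99%. A match is a description of the letters in the window.

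E-boxes, the sites of bHLH proteins such as Amos, were at pooled tRNA peaks in about the share found over all pooled peaks, and in a higher share in the replicate 1 list. CANNTG was in 83 of the 208 windows (39.9%, 33.5 to 46.7), beside 40.4% of all. It was in 55.0% of the tRNA peaks of the replicate 1 list, beside 39.5% of all peaks there, and in 40.5% of those of replicate 2, beside 38.1%. CAGCTG, which is also a CANNTG match, was in 3 (1.44%, 0.492 to 4.15), beside 8.64%. In 59 of the 83, the tRNA gene itself held CANNTG, as did all 17 alanine, all 11 isoleucine and all 10 tyrosine tRNA genes on the main arms. Tyrosine and alanine genes had a peak in 5 of 10 and 13 of 17 cases. Of the 93 tRNA genes with CANNTG in the gene 64 had a peak (68.8%, 58.8 to 77.3), and of the 197 without 147 (74.6%, 68.1 to 80.2). With 100 bp to each side included, the shares were 72.4% of 210 and 73.8% of 80. An E-box in or beside a tRNA gene thus did not go with a higher share of genes with a pooled peak. These shares per gene are given for the pooled list alone, not for each replicate.

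Most CGATAG matches belonged to the genes too. The share was 11.0% of the tRNA peaks in the replicate 1 list, beside 24.5% of all peaks there, and 5.85% in the replicate 2 list, beside 36.1%. The 11 peaks were at tRNA:Ser-TGA-1-1, tRNA:Ala-AGC-2-8, tRNA:Leu-AAG-1-4, tRNA:Pro-TGG-1-4, 2 tyrosine and 5 aspartate tRNA genes. In 7 of the 11 the gene itself holds CGATAG, which is in all 14 aspartate and all 10 tyrosine tRNA genes; in the printed aspartate sequences it runs into the A box. Of these 24 genes 15 had a peak (62.5%, 42.7 to 78.8), and of the other 266 tRNA genes 196 (73.7%, 68.1 to 78.6).

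**Figure D4:**
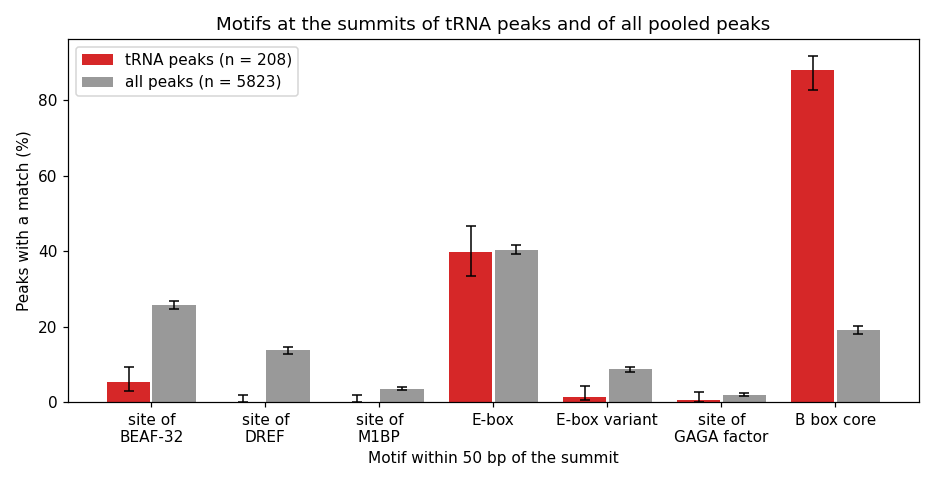
Share of windows with a match (vertical axis, %) for 7 motifs (horizontal axis) within 50 bp of the summit, at the 208 tRNA peaks (red) and all 5823 pooled peaks (grey), with Wilson 95% intervals as error bars. The E-box (CANNTG) shares are 39.9% and 40.4%, the BEAF-32 site (CGATAG) shares 5.29% and 25.7%, and the B box core shares 88.0% and 19.1%. At peaks away from both tRNA genes and promoters, which are not drawn, the CGATAG share was 9.04%.

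Peaks were found at tRNA genes for every amino acid. All 22 classes, with the initiator methionine tRNA (iMet) and the selenocysteine tRNA (SeC) counted apart, had at least 1 gene with a pooled peak, as did all 45 anticodons, and 11 anticodons had one at every gene. Among classes with more than 10 genes the share was highest for threonine (15 of 17) and serine (17 of 20), and lowest for glutamate (9 of 19). Phenylalanine had 4 of 8, tyrosine 5 of 10 and iMet 3 of 6. These shares count the thresholded pooled list alone. In the pooled ranked list, tRNA:Glu-TTC-1-4, tRNA:Glu-TTC-1-5, tRNA:Glu-CTC-2-1 and tRNA:Glu-CTC-2-2, which had no pooled peak, had signals of 271.7 to 606.9. There tRNA:iMet-CAT-1-1 and tRNA:iMet-CAT-1-2, also without a pooled peak, had 165.0 and 304.5. The glutamate genes without a pooled peak also include tRNA:Glu-CTC-3-5 to tRNA:Glu-CTC-3-7, whose flanks match another tRNA gene. The part of these genes in the low shares was not tested. With so few genes a class, the Wilson intervals of threonine (65.7 to 96.7%) and glutamate (27.3 to 68.3%) overlap.

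The strongest gene of each remaining class had these values. tRNA:Ala-CGC-1-1 had a pooled signal of 517.9, with 98.9 in replicate 1 and 411.8 in replicate 2. tRNA:Ile-TAT-1-1 had 500.8, 76.96 and 433.1, tRNA:Phe-GAA-1-4 had 497.0, 102.1 and 351.7, and tRNA:Gln-CTG-3-1 had 464.4, 51.1 and 422.6. tRNA:Trp-CCA-2-5 had 461.9, 112.4 and 362.7. The initiator gene tRNA:iMet-CAT-1-5, whose product starts every protein, had 436.1, 77.4 and 433.1. These peaks were in both replicate lists.

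In other classes the best gene was missing from a replicate list. tRNA:Val-CAC-2-6 (396.2, 64.3 and 333.7) and tRNA:Cys-GCA-1-3 (385.5, 99.9 and 313.7) were in both. tRNA:Tyr-GTA-1-8 had a pooled signal of 392.3 and 503.8 in replicate 2, with no such peak in replicate 1. tRNA:Met-CAT-1-2, an elongator gene, had 313.7 and 79.3 in replicate 1, with none in replicate 2. tRNA:SeC-TCA-1-1, the only gene for selenocysteine, which is inserted at recoded stop codons, had a pooled signal of 50.1 (rank 5297) and 36.2 in replicate 2, with none in the replicate 1 list. It was the lowest of the classes, with 1 gene.

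**Figure D5:**
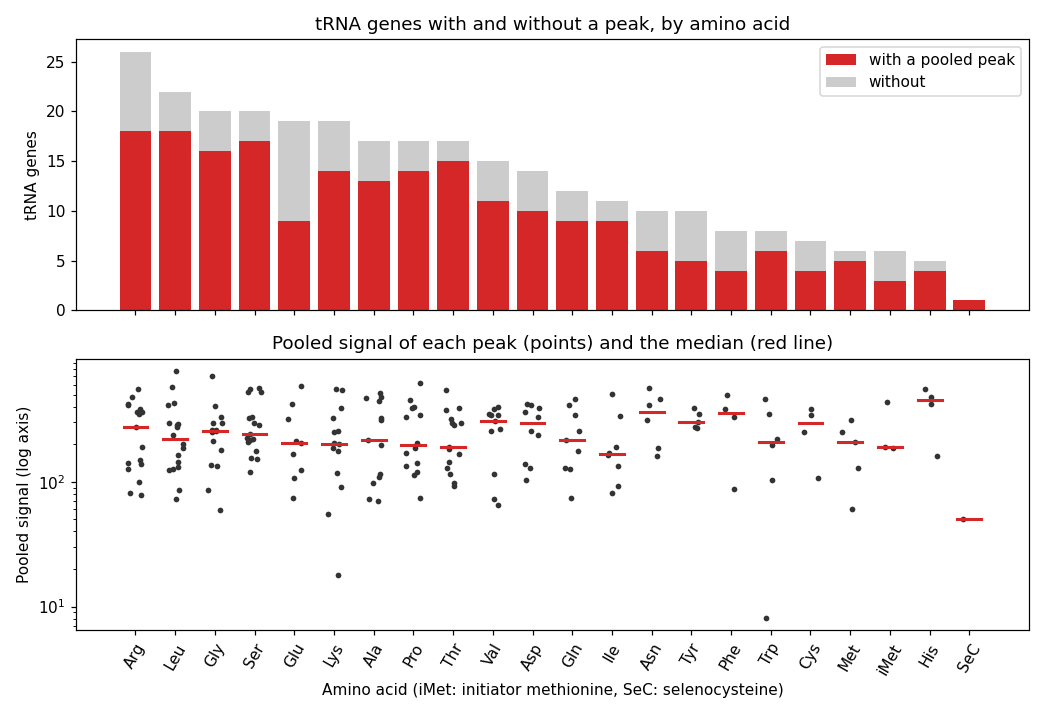
Upper panel, number of tRNA genes (vertical axis) with (red) and without (grey) a pooled peak for each amino acid (horizontal axis). Lower panel, pooled signal of each tRNA peak (points, log axis) with the class median (red line), from 50.1 for selenocysteine to 449.0 for histidine, with points of different classes overlapping.

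Identical copies did not share a signal. Of the tRNA genes with no identical copy 35 of 52 had a peak (67.3%), of those with 1 to 4 copies besides 79 of 103 (76.7%), and of those with 5 or more 97 of 135 (71.9%), with overlapping intervals. Of the 43 families of identical genes, 13 had a peak at every member, 30 at some and 0 at none. In the 30 families with 3 or more peaks, the strongest signal was a median of 3.79 times the weakest (1.10 to 31.1). The widest was the family of 13 Lys-CTT genes, of which 12 had peaks of 17.8 to 552.7. Its ratio rests on tRNA:Lys-CTT-1-2, whose summit is inside the interval of the tRNA:Asn-GTT-1-6 peak: the next lowest, tRNA:Lys-CTT-1-9, had 55.3. The highest, at tRNA:Lys-CTT-1-1, is shared with tRNA:Arg-ACG-1-1. The 12 aspartate copies had 8 genes with peaks between 104.2 and 417.0.

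Genes with copied flanks had no pooled peak. For 9 tRNA genes the 100 bases on at least 1 side matched those of another tRNA gene, and none of these had a pooled peak, while 211 of the other 281 did. They were tRNA:Asn-GTT-1-4 and tRNA:Asn-GTT-1-5, tRNA:Glu-CTC-3-5, tRNA:Glu-CTC-3-6 and tRNA:Glu-CTC-3-7, and tRNA:Lys-TTT-2-1 to tRNA:Lys-TTT-2-4. Signal was not absent there: tRNA:Glu-CTC-3-7 had a peak of 44.4 in the replicate 2 list, and tRNA:Lys-TTT-2-1 and tRNA:Lys-TTT-2-4 had regions of 303.4 and 284.8 in the pooled ranked list. Both regions had a global IDR of 1e-05, within the range of the listed peaks. So did regions at tRNA:Glu-CTC-2-1 and tRNA:Glu-TTC-1-5, which also had no pooled peak although their flanks match no other tRNA gene. A missing pooled peak was thus not confined to genes with copied flanks. All genes in this paragraph were named after their values were seen. The labels do not say how the authors placed reads that match several positions, and its part was not tested.

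Matches to the promoter elements did not separate genes with and without a pooled peak. Of 268 genes with the A box consensus 197 had a peak (73.5%), and of 22 without 14 (63.6%, 43.0 to 80.3). For the B box core these were 199 of 272 (73.2%) and 12 of 18 (66.7%, 43.7 to 83.7). With a run of 4 T within 30 bp after the gene they were 201 of 277 (72.6%), and without it 10 of 13 (76.9%). The classes without a match are small, and their intervals hold the share of the others. A gene without a match to the letters searched may still have the element.

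Distance to the next tRNA gene did go with the share. Of 106 genes with another tRNA gene at 250 bp or less, 62 had a peak (58.5%, 49.0 to 67.4). Over 250 and up to 500 bp these were 41 of 50 (82.0%, 69.2 to 90.2), up to 1000 bp 24 of 29 (82.8%), up to 5 kb 25 of 29 (86.2%) and beyond 5 kb 59 of 76 (77.6%, 67.1 to 85.5). Of the 79 genes without a peak, 32 lay within 250 bp of a tRNA gene with a peak, and 6 were overlapped by a pooled peak with its summit elsewhere. The smallest distance between neighbouring summits of the pooled list was 199 bp, and 24 neighbouring pairs were under 200 bp apart. Of these pairs, 1 was between tRNA peaks, tRNA:Gly-GCC-1-12 (406.4) and tRNA:Trp-CCA-2-4 (196.8). That pair of genes, 99 bp apart, was named after its values were seen. With no summits closer than 199 bp in the list, close tRNA genes could not always each hold a summit. The part of this spacing in the lower share at 250 bp or less was not tested.

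With tRNA genes up to 5 kb apart joined, 76 genes stood alone and 214 fell into 68 clusters. At least 1 peak was in 64 of the clusters (94.1%), and 152 of their genes had one (71.03%), beside 59 of the 76 single genes (77.6%). The most peaks, 7 each, were in 2 clusters of 11 genes. That on 2R (chr2R:6161535-6171759, arginine, asparagine, isoleucine and lysine) had 8 genes with a peak in the pooled list, of which a pair shares a peak, 5 in replicate 1 and 9 in replicate 2. That on 3R (chr3R:17617761-17631750, alanine, proline, threonine and valine) had 7, 4 and 7. In that cluster, tRNA:Pro-TGG-1-2 had a pooled signal of 452.8, its neighbour tRNA:Ala-AGC-2-3 at 111 bp had 108.7, and tRNA:Ala-AGC-2-2 at 150 bp from the next gene had no peak. Strong, weak and empty genes thus stood side by side in a list with no summits closer than 199 bp, which limits what can be said of genes this close.

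Clusters on 2R (chr2R:13430282-13432794, 7 genes), X (chrX:14014814-14017284, 7 genes) and 3L (chr3L:3095737-3097590, 6 genes) had 5 genes with a peak each. The largest clusters with none were 7 genes for iMet and glutamate tRNA on 2R (chr2R:19725620-19728958) and 4 Lys-TTT genes on 3R (chr3R:6819894-6823035). Next came a pair of Phe and Val genes on 3R (chr3R:16321403-16321762) and, of the same size, a pair of tyrosine genes on X. None of these had a peak in a replicate list either. By arm, the share of genes with a pooled peak was 27 of 41 on 2L, 77 of 98 on 2R, 35 of 48 on 3L, 57 of 79 on 3R and 15 of 24 on X. On X, 2 of 24 genes had a peak in replicate 1 (8.33%) and 16 in replicate 2 (66.7%), while on 2L these were 21 and 29 of 41. The other arms lay between these in replicate 1, with 45 and 75 of 98 on 2R, 18 and 34 of 48 on 3L and 25 and 56 of 79 on 3R.

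Set beside other genes, a pooled summit within 100 bp of the 5′ end was found at 207 of the 290 tRNA genes (71.4%, 65.9 to 76.3), beside 24.5% of 13945 protein-coding genes. Cytosolic ribosomal protein genes, by symbol, had 48 of 92 (52.2%, 42.1 to 62.1), and snoRNA genes 8 of 269 (2.97%). The order of tRNA and protein-coding genes held in both replicates, at 37.2% and 26.6% in replicate 1 and 69.7% and 12.9% in replicate 2. That of tRNA and ribosomal protein genes did not: the latter had 59.8% in replicate 1, 39.1% in replicate 2 and 46.7% in the conservative list, where tRNA genes had 45.2%. tRNA genes are much shorter, so a window of 100 bp around the 5′ end takes in the whole gene for most of them.

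Other genes read by RNA polymerase III were mixed. The 7SK RNA gene snRNA:7SKa had a peak of pooled signal 1048.1 (264.7 in replicate 1, 732.5 in replicate 2). It was above every tRNA peak in the pooled and replicate 2 lists, and below tRNA:Gly-TCC-1-2 (287.0) in replicate 1. The 3 U6 spliceosomal RNA genes snRNA:U6:96Aa, snRNA:U6:96Ab and snRNA:U6:96Ac had 384.8, 223.1 and 367.0, and the RNase MRP RNA gene 261.3. Each of these 4 was in the list of 1 replicate, snRNA:U6:96Aa (373.1) and snRNA:U6:96Ab (334.5) in replicate 2 and snRNA:U6:96Ac (171.3) and RNaseMRP:RNA (84.9) in replicate 1, and none was in the conservative list. No peak of a thresholded list was within 100 bp of the 2 signal recognition particle (7SL) RNA genes, RNaseP:RNA, snRNA:7SKb or snRNA:U6atac. Both 7SL genes lie inside the Lys-TTT cluster on 3R. There the pooled ranked list had regions of 303.4 at tRNA:Lys-TTT-2-1 and 284.8 at tRNA:Lys-TTT-2-4 that the thresholded list lacks. Signal at the 7SL genes in the ranked lists was not examined. None of the 96 annotated 5S rRNA genes, near-identical repeats, had a summit at its 5′ end (0 to 3.85%). Of the 10 genes other than 5S, 4 had a pooled summit within 100 bp of the 5′ end. In the conservative list, which held the snRNA:7SKa peak of 1048.1, these were 0. The pooled summit at snRNA:7SKa was thus more than 100 bp from its 5′ end.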

How the data were processed

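Per the labels of the lists, the authors called peaks per replicate and on reads pooled from both, and ranked and cut them by irreproducible discovery rate (IDR). The build is dm6, per the labels. Which aligner and peak caller they used is not given in the sources used here. Each deposited signal is the peak caller's value, never negative. The deposited lists give the q value, and the ranked lists the global IDR, as −log10. The lists used give no read counts, so depth is unknown. Wilson 95% intervals cover the counting of peaks or genes only, and neighbouring genes share peaks, so these are not independent replicates.

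From these lists, 7 were used: pooled, conservative and each replicate's thresholded list, and 3 ranked lists. The 32 columns of values per input in the ranked lists were not used. Summits were matched to Ensembl release 115 genes on the 6 main arms, and the 22 mitochondrial tRNA genes were left out. All 290 tRNA genes had the same coordinates in RefSeq. Coordinates are 1-based, and summit positions count 0 at the first base of the gene. A gene had a peak where a summit lay within 100 bp of it. A percentile is the share of a list, or of the shared set, with lower signal. TSSs were the 5′ ends of all protein-coding transcripts.

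Named genes are those of the 15 strongest tRNA peaks, the strongest of each amino acid, the clusters with most peaks and the largest with none, and the members nearest to the 100 bp limit. Any other was chosen after its values were seen. Members, motifs and lists were chosen with earlier results of these data known. There is 1 group, so shares and medians are described without a test. Alternatives were the conservative list, each replicate alone, other distances, a q value of 0.05, no TSS within 500 bp, wider windows, other cluster gaps and, added after the data were seen, peaks of other than the commonest width and another overlap rule. The matching of summits to genes and motifs was tested on simulated data. Python 3.11.15, numpy 2.4.6, pandas 2.3.3, scipy 1.17.1 and matplotlib 3.10.9 were used.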

Additional observations from a re-analysis of the deposited data

Results flagged for a closer look

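In the ranked list from pooled reads, 8 tRNA genes had a region with a global IDR of 0.01 or less and no peak in the thresholded pooled list. The largest global IDR of any pooled peak was 0.00999576, so these regions are within the range of the listed peaks. They were tRNA:iMet-CAT-1-1, tRNA:iMet-CAT-1-2, tRNA:Glu-TTC-1-4, tRNA:Glu-TTC-1-5, tRNA:Glu-CTC-2-1 and tRNA:Glu-CTC-2-2 in the iMet and glutamate cluster, and tRNA:Lys-TTT-2-1 and tRNA:Lys-TTT-2-4 in the Lys-TTT cluster. The signal in the pooled ranked list was 606.9 at tRNA:Glu-CTC-2-1 and 460.6 at tRNA:Glu-TTC-1-5, and 165.0 at tRNA:iMet-CAT-1-1, the lowest of the 8. The 2 largest clusters without a peak thus had signal in the ranked list. Per the deposited text files, the thresholded lists were made with a further file that the ranked lists were not; its part was not tested.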

How the results depend on the processing

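Without 1 replicate, the number of tRNA peaks ran from 109 to 205, the share of tRNA genes with a peak from 38.3% to 72.4%, the median percentile from 39.4 to 78.2 and the median summit position from 23 to 48 bp. In each the lower value was that of replicate 1. CGATAG ran from 5.85% to 11.0%, CANNTG from 40.5% to 55.0%, the share within 500 bp of a TSS from 11.2% to 12.8% and the share with a q value of 0.05 or less from 92.7% to 98.5%. The conservative list held 131 tRNA peaks at 46.2% of tRNA genes, 11.5% of them within 500 bp of a TSS, and peaks of other than the commonest width had 12.1% there. With windows of 100 bp to each side, CGATAG was in 11.1% and CANNTG in 62.5%. With a summit inside the gene, within 250 bp, a q value of 0.05 or less, no TSS within 500 bp, other cluster gaps or another overlap rule, the values moved by less than the spread between replicates or, where there is none, their interval. That spread is wide, so a smaller shift does not show that a value is stable. The share of tRNA genes with a peak was 72.8%, against 64.1% with the summit inside the gene and 82.4% within 250 bp. Its SD between replicates was 24.1. The cause of these shifts was not tested, except that wider windows hold more letters. No paired analysis was possible because there is 1 group. Without read counts, depth sets no limit that can be stated.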
